A study of Ovis aries with 18 samples.

Results

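The pentose phosphate pathway branches off glycolysis at glucose 6-phosphate. Its oxidative branch makes NADPH, the reductant used in lipid synthesis and antioxidant defence, and its non-oxidative branch interconverts the sugar phosphates that link ribose 5-phosphate, the precursor of nucleotides, with glycolysis. In preimplantation embryos the pathway is known for supplying both at a time of rapid growth. The counts of its genes were examined in sheep blastocysts. The 6 genes were TALDO1, TKT, PGD, PGLS, RPIA and RPE. They were chosen by their place in the pathway and on the level of TALDO1 itself, which had the most counts of the genes counted in several libraries. Its level is therefore given as a description, with no test. Of the 6 genes, 5 had a row among the 20092 genes counted, and all 5 passed the filter on low counts, which left 16488 genes. PGD, which encodes 6-phosphogluconate dehydrogenase of the oxidative branch, was not analysed here. The 5 genes were identified by symbol only: TALDO1 (NCBI gene 100135441), TKT (101107229), PGLS (101111093), RPIA (101110313) and RPE (101123013).

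RNA was sequenced from 12 pools of 5 blastocysts each, whose sires were 6 Polypay rams. The 6 control pools came from rams on a basal diet (Ram410, Ram423 and Ram444, with 2 pools each). The 6 methionine pools came from rams that had received this diet before puberty with 1.5 g (0.22%) of methionine, protected from rumen degradation, added on top (4 pools of Ram424, and 1 pool each of Ram498 and Ram511). The dams were superovulated Polypay ewes, and which ewe a pool came from was not considered. Each pool held whole embryos, with inner cell mass and trophectoderm together, so that fewer cells of a type and less RNA per cell cannot be told apart. Pools of a ram share their sire, and p-values over pools treat them as independent.

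The pools held 1017847 to 2398589 counts. Control pool Embryo444_2 and methionine pool Embryo511_1 stood apart from the other 10: Spearman correlations of gene counts were 0.806 to 0.955 among the 10, but 0.526 to 0.626 between these 2 pools and the 10, and 0.570 between the 2. Of 9 trophectoderm markers, 7 had a row, and their summed level was 5252 to 14350 CPM (counts scaled to a common library size with edgeR's TMM factors) in the 10 pools. It was 223.7 CPM in Embryo444_2 and 194.3 CPM in Embryo511_1. ELF5 was the exception, at 29.0 and 66.4 CPM, within the 17.1 to 127.7 CPM of the 10 pools. The other markers of this list lay below all of the 10 in both pools. None of the 7 was at 0 in any pool, while SOX17 among the hypoblast and ODF1 among the sperm markers were at 0 in at least 1 pool. KRT8, a keratin of the trophectoderm, had 116.1 and 42.6 CPM in these 2 pools, against a median of 6371 CPM in the 10. Of 6 epiblast markers, 2 had a row (POU5F1 and NANOG), with a sum of 142.7 to 535.0 CPM in the 10 pools, 24.1 CPM in Embryo444_2 and 47.6 CPM in Embryo511_1. The lower sums were due to POU5F1, while NANOG, at 9.9 and 7.9 CPM, lay within the 5.1 to 16.3 CPM of the 10. Of 5 hypoblast markers all had a row, with 492.6 to 1042 CPM in the 10 pools, 327.0 CPM in Embryo444_2 and 411.4 CPM in Embryo511_1. The lower sums were due to GATA6, at 38.9 and 66.4 CPM against 248.6 to 801.4 CPM in the 10. PDGFRA in Embryo444_2 (165.6 CPM), and GATA4 (94.2 CPM) and FGFR2 (135.8 CPM) in Embryo511_1, lay above all of the 10. The other values of PDGFRA, GATA4 and FGFR2 in these pools lay within the range of the 10. Of 4 sperm markers, 3 had a row, with 16.4 to 101.5 CPM in the 10 pools, 47.4 CPM in Embryo444_2 and 1066 CPM in Embryo511_1, where TNP1, a transition protein of sperm chromatin, had 1017 counts. The summed level was 106.2 CPM in Embryo444_2 and 35.0 to 66.8 CPM in the 10 pools for HAS2, the 1 cumulus marker with a row of 4. It was 116.8 and 54.3 to 97.0 CPM for the 3 of 5 oviduct and endometrial markers, and 128.1 and 49.8 to 93.3 CPM for the 2 of 4 blood markers, which reached 264.7 CPM in Embryo511_1. The higher sums were due to MUC1 in Embryo444_2 (53.1 CPM, against 8.8 to 17.5 CPM in the 10) and to PTPRC. PTPRC had 121 CPM in Embryo444_2 and 253.8 CPM in Embryo511_1, against 40.2 to 76.5 CPM in the 10. ESR1, PGR and CD74, and AKAP4 and ODF1 of the sperm markers, lay within the range of the 10 in both pools. The part of embryo composition in the results that follow was not tested, and the diet comparisons are given over all 12 pools and over the 10.

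TALDO1 encodes transaldolase, the enzyme of the non-oxidative branch that moves a three-carbon unit from sedoheptulose 7-phosphate to glyceraldehyde 3-phosphate. It ranked first by count in 4 of the 12 pools, second in 5 and at position 3 in 1. It ranked at position 5 in Embryo511_1 and at position 416 in Embryo444_2. These ranks are of counts, which also grow with transcript length, and no lengths were used. They are among genes with a row, and some genes, such as GAPDH, had none. The counts of a pool were also a small part of the reads that the paper gives for these libraries. Among control pools TALDO1 had 9917 and 12090 counts in Embryo410_1 and Embryo410_2, 24096 and 13797 in Embryo423_1 and Embryo423_2, and 9126 and 247 in Embryo444_1 and Embryo444_2. Among methionine pools it had 13633, 11971, 13611 and 17248 counts in Embryo424_1 to Embryo424_4, 9153 in Embryo498_1 and 2194 in Embryo511_1. As a share of all counts, this was 1.55% in Embryo423_1 (95% Wilson interval 1.53 to 1.57), the highest of the pools, and 0.0211% in Embryo444_2 (0.0186 to 0.0238), the lowest. The intervals cover counting error only. The shares of the other control pools lay between 0.652% and 0.896%, and those of the methionine pools other than Embryo511_1 between 0.568% and 0.902%. Embryo511_1 had 0.216% (0.207 to 0.225).

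**Figure D1:**
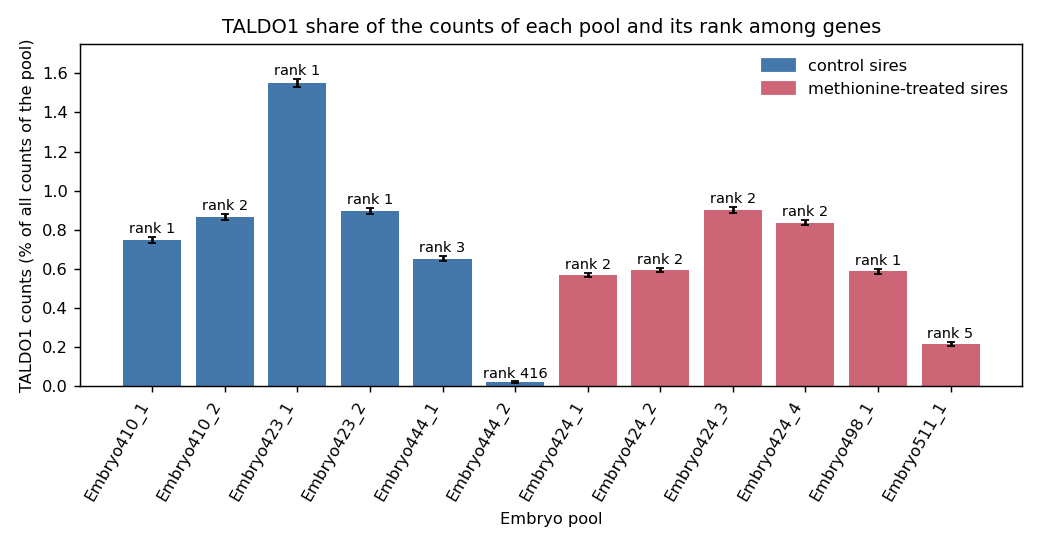
TALDO1 counts as a percent of all counts of each embryo pool, with bars for control (blue) and methionine-treated (red) sires, 95% Wilson intervals and the rank of TALDO1 among genes by count above each bar. Embryo444_2 stands at 0.0211% and Embryo511_1 at 0.216%, while the other 10 pools lie between 0.568% and 1.55%.

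In the pools that ranked TALDO1 below first, different genes led. KRT8 had the most counts in Embryo410_2, Embryo424_3 and Embryo424_4, where TALDO1 had 0.920, 0.885 and 0.715 times its count. LGALS3, which encodes galectin-3, led in Embryo424_1 and Embryo424_2, where TALDO1 had 0.930 times its count in both. UBR4, which encodes a ubiquitin ligase, led in Embryo444_1 with 21170 counts. The leading gene was TTN, which encodes the giant muscle protein titin, in Embryo444_2 (2516 counts) and PKP2, which encodes plakophilin, in Embryo511_1 (5117 counts). RPL8, a ribosomal protein gene, was the runner-up in all 3 control pools where TALDO1 led, and KRT8 was in Embryo498_1, where the lead was 1.03-fold.

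The level of TALDO1 differed 98.4-fold between the highest and the lowest of the 12 pools and 3.12-fold among the 10. In Embryo444_2 it was 174.9 CPM, 45.6-fold below the median of the 10 pools (7971 CPM), and 41 of 16488 genes (0.249%) lay further below their own median on the log2(CPM + 1) scale. In Embryo511_1 it was 2175 CPM, 3.66-fold below, with 1293 genes (7.84%) further below. A gene of low level cannot fall as far on this scale, and TALDO1 was chosen by its high level. These shares are therefore descriptions and do not show how unusual the fall of TALDO1 was. The median gene of these pools differed from its median in the 10 by 0.05 and -0.011 on that scale. TMM scaling itself draws this value towards 0, so it does not show that most genes were unchanged. KRT8 was 54.9-fold and 149.4-fold lower in these pools, and LGALS3 226.7-fold and 36.6-fold lower. The other pool of the same ram as Embryo444_2 had 6476 CPM, a 37.0-fold difference within Ram444, while pools of a ram differed by 1.15-fold for Ram410, 1.94-fold for Ram423 and up to 1.47-fold for Ram424.

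The spread of a gene between pools beyond counting error is given by the biological coefficient of variation of edgeR. For TALDO1 it was 0.748 over the 12 pools, above that of 97.8% of the genes tested (median 0.408). Over the 10 pools it was 0.324, above that of 52.9% of genes (median 0.318). Without the 2 pools that stood apart, TALDO1 thus varied about as much as the median gene. For TKT the same values were 0.547 and 0.311, and for PGLS 0.489 and 0.439, the latter above that of 87.8% of genes. RPIA and RPE varied less, with 0.357 and 0.312 over the 12 pools and 0.283 and 0.281 over the 10.

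The oxidative branch was represented by PGLS, which encodes 6-phosphogluconolactonase, the enzyme that makes 6-phosphogluconate. PGLS had 48.9 and 24.1 CPM in the pools of Ram410, 56.4 and 47.5 CPM in those of Ram423, and 29.1 and 24.8 CPM in those of Ram444. With methionine it had 112.3, 61.7, 21.2 and 61.4 CPM in the pools of Ram424 and 21.1 and 27.8 CPM in Embryo498_1 and Embryo511_1. The pools of Ram424 alone thus spanned 5.30-fold, and the groups overlapped. Behind these levels stood only 28 to 235 counts per pool, so that single values are imprecise.

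RPIA encodes ribose 5-phosphate isomerase, which makes the ribose 5-phosphate used for nucleotides. In control pools it had 114.4 and 102.0 CPM (Ram410), 182.9 and 127.7 CPM (Ram423), and 88.0 and 58.0 CPM (Ram444). In methionine pools it had 142.4, 152.9, 84.0 and 126.3 CPM (Ram424), 84.3 CPM in Embryo498_1 and 131.9 CPM in Embryo511_1. The lowest value was that of Embryo444_2, as for TALDO1. Embryo511_1, where TALDO1 was also low, lay above the median of the 10 pools (120.4 CPM), by 1.10-fold.

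RPE encodes ribulose 5-phosphate epimerase, which acts beside RPIA on the same substrate. Its levels were 53.4, 35.4, 55.0, 33.4, 27.7 and 38.9 CPM in the control pools, in the order Embryo410_1 to Embryo444_2, and 44.9, 46.4, 54.3, 60.5, 34.9 and 32.7 CPM in the methionine pools, in the order Embryo424_1 to Embryo511_1. All 12 pools lay within 2.18-fold, on 33 to 123 counts. Embryo444_2, in which TALDO1 was lowest, was at 0.852 times the median of the 10 pools for RPE.

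TKT encodes transketolase, which moves two-carbon units between the sugars and acts before and after transaldolase in the non-oxidative branch. It had 313.8 and 273.4 CPM in the pools of Ram410, 270.7 and 216.2 CPM in those of Ram423, and 237.7 and 43.2 CPM in those of Ram444. With methionine it had 629.4, 562.8, 344.4 and 296.4 CPM in the pools of Ram424, 219.2 CPM in Embryo498_1 and 118.0 CPM in Embryo511_1. Embryo424_1 and Embryo424_2 lay highest of all pools. They were also the most alike pair of pools, with a Spearman correlation over genes of 0.955 (0.895 for the next pair of the 10) and a chi-square per degree of freedom of 3.36 (8.62 to 27.5 for other pools of a ram), so that their TKT values may be close to 1 observation. The other methionine pools lay within or near the range of control pools, and Embryo444_2 and Embryo511_1 were lowest, 6.60-fold and 2.41-fold below the median of the 10 pools.

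**Figure D2:**
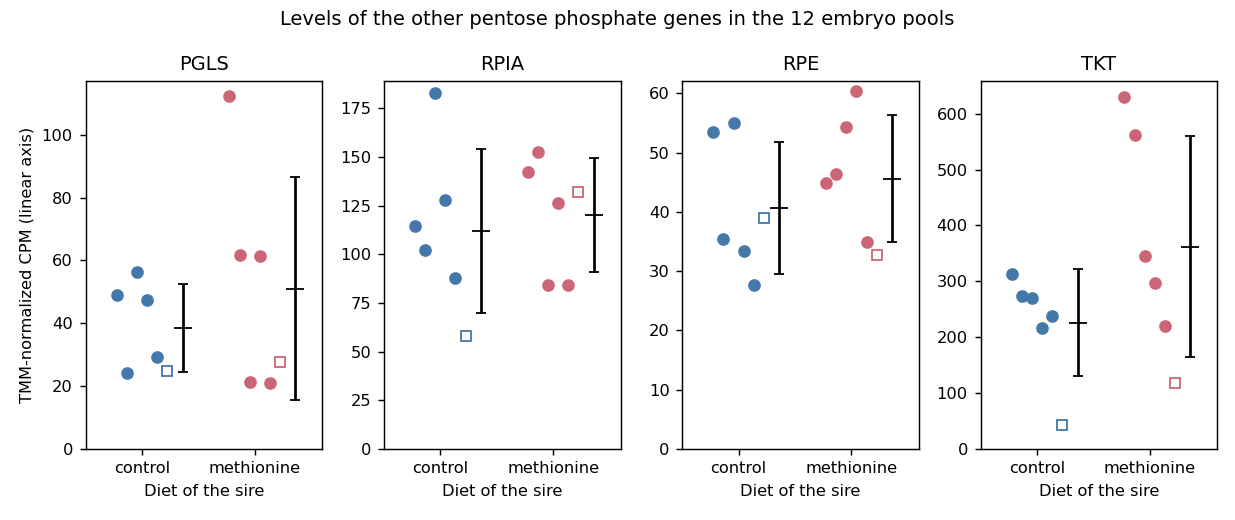
TMM-normalized CPM (linear axes that start at 0) of PGLS, RPIA, RPE and TKT in pools from control (blue) and methionine-treated (red) sires, with mean and SD of 6 pools in black and open squares for Embryo444_2 and Embryo511_1. The diet groups overlap for all 4 genes, and the 2 highest TKT values, 629.4 and 562.8 CPM, are those of Embryo424_1 and Embryo424_2.

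TALDO1 and TKT were not at a fixed ratio. The count of TALDO1 was 10.4 and 12.0 times that of TKT in Embryo424_1 and Embryo424_2, where TKT was high and TALDO1 was not, and 63.6 times in Embryo423_1, where TALDO1 was high and TKT was not. It was 23.8 to 40.9 times in the other 7 of the 10 pools, 18.4 times in Embryo511_1 and 4.05 times in Embryo444_2. Over the 12 pools the log2 CPM of both genes had a Pearson's r of 0.82 (Spearman's rho 0.41), and over the 10 pools r was -0.19 (rho -0.030). The relation therefore rested on Embryo444_2 and Embryo511_1. For TALDO1 with PGLS, RPIA and RPE, r was 0.34, 0.64 and 0.29 over the 12 pools and 0.096, 0.51 and 0.46 over the 10. These coefficients are descriptions, since the 2 genes of a pair share a library and its scaling and pools of a ram share a sire.

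**Figure D3:**
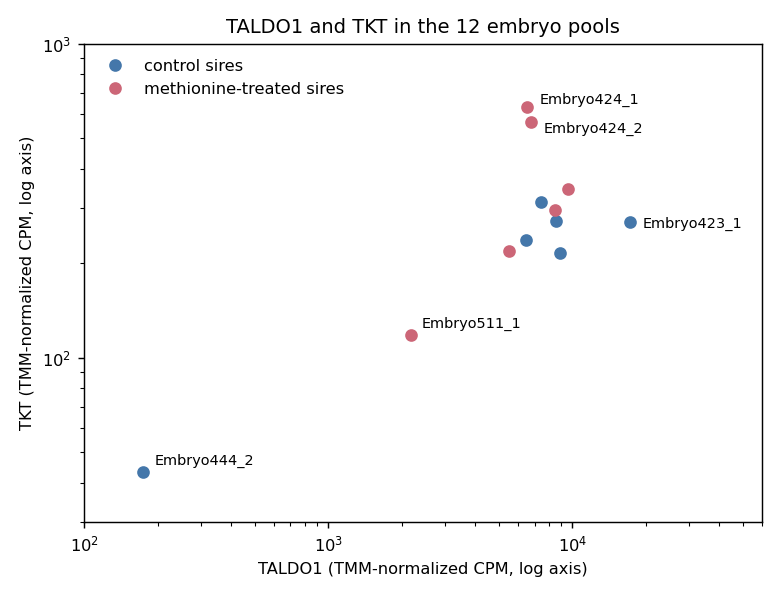
TALDO1 against TKT in the 12 pools, both in TMM-normalized CPM on log axes, with 1 point per pool coloured by the diet of the sire and 5 pools named. Embryo444_2 (174.9 and 43.2 CPM) and Embryo511_1 (2175 and 118.0 CPM) lie at the lower left, and among the other 10 pools no common trend is seen.

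The genes whose log2 CPM was most like that of TALDO1 over the 12 pools were TRMT112, a partner subunit of methyltransferases (r = 0.99), RANBP1, a Ran-binding protein gene (0.99), NME3, a nucleoside diphosphate kinase gene (0.98), LETM1, of the mitochondrial inner membrane (0.98), and RPS21, a ribosomal protein gene (0.98). Without the 2 pools that stood apart, r was 0.87, 0.83, 0.85, 0.78 and 0.65, and none of the 5 was among the 5 most alike. An r over 0.9 with TALDO1 was found for 303 of 16487 genes over the 12 pools and for 11 over the 10. The summed CPM of PGLS, RPIA, RPE and TKT was followed most closely by SLC16A1, a lactate and pyruvate transporter gene (r = 0.98, and 0.96 over the 10 pools), NUDT4 (0.98 and 0.97), EIF4G2 (0.97 and 0.95), YWHAE (0.97 and 0.94) and SERBP1 (0.97 and 0.94). TALDO1 stood at position 1490 of 16484 in that order over the 12 pools (r = 0.76), and at position 7230 over the 10 (r = 0.036). Of the summed genes, TKT had the highest mean over the 12 pools (293.8 CPM).

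To assess whether the sires' diet affected these genes in the embryos, all 16488 genes were compared between the 6 methionine and the 6 control pools with the quasi-likelihood test of edgeR, two-sided, with Benjamini-Hochberg FDR under 0.05 over all genes tested. None of the 5 pentose phosphate genes passed, and 0% of all genes did (0 of 16488). Before adjustment, 1306 genes (7.92%) had p under 0.05, and none of the 5 was among them. With DESeq2 in place of this test 16 genes were called, and with edgeR's likelihood-ratio test 5, and again none was one of the 5.

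TALDO1 had 6511 ± 2582 CPM (SD, n = 6) in methionine pools and 8123 ± 5471 CPM (SD, n = 6) in control pools, which gave a log2 fold change of -0.32 ± 1.07 (SE, edgeR FDR 0.959). The difference was far smaller than the spread between pools. With the 6 rams as the unit, the mean log2 CPM was 12.1 with methionine and 12.2 in controls (p = 0.9 by exact permutation of the diets over the rams, two-sided, of which there are 20, so that p cannot go below 0.1). Without Embryo444_2 and Embryo511_1 the levels were 7378 ± 1641 CPM (SD, n = 5) and 9713 ± 4296 CPM (SD, n = 5), and the log2 fold change was -0.40 (standard error 0.35, edgeR FDR 0.668). Leaving out only Embryo423_1, the highest of the 12 pools, gave a log2 fold change of 0.045.

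TKT had the largest difference of the 5 in size, 361.7 ± 198.2 CPM (SD, n = 6) against 225.8 ± 95.5 CPM (SD, n = 6), or 0.68 ± 0.46 on the log2 scale (SE, edgeR FDR 0.732). Without the 2 pools that stood apart it was 0.63 (standard error 0.27, edgeR FDR 0.384), with an unadjusted p under 0.05. At that unadjusted threshold 11.9% of all genes passed over the 10 pools, and 0.00607% passed the FDR (1 gene, MROH5, named after its values were seen). TKT was 458.3 CPM on average in the pools of Ram424 and 219.2 and 118.0 CPM in those of the other methionine-treated rams, against 293.6, 243.5 and 140.5 CPM for Ram410, Ram423 and Ram444. Without the pools of Ram424 the log2 fold change of TKT was -0.42 (standard error 0.62). The methionine pools of that fit were Embryo498_1 and Embryo511_1 alone, and Embryo511_1 is a pool that stood apart. With the pools of each ram summed the log2 fold change of TKT was 0.28 (standard error 0.57), and with the ram as a random effect in limma 0.34 (standard error 0.60).

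For PGLS the means were 50.9 ± 35.5 and 38.5 ± 14.1 CPM (SD, n = 6 each), and the log2 difference was 0.41 ± 0.41 (SE, edgeR FDR 0.806). It was -0.66 without the pools of Ram424, again with Embryo498_1 and Embryo511_1 as the only methionine pools. For PGLS it was 0.43 ± 0.40 over the 10 pools, 0.087 with the pools of each ram summed and 0.13 in limma with a random ram effect. For RPIA they were 120.3 ± 29.4 and 112.2 ± 42.1 CPM (SD, n = 6 each), with 0.10 (standard error 0.28, edgeR FDR 0.943) over the 12 pools and -0.070 (standard error 0.24) over the 10. For RPE they were 45.6 ± 10.8 and 40.6 ± 11.1 CPM (SD, n = 6 each), with 0.17 (standard error 0.25, edgeR FDR 0.876) over the 12 pools and 0.23 (standard error 0.25) over the 10. Differences of this size were within the spread between pools. The median log2 fold change was 0.17 over the 5 genes and 0.0051 over all genes tested.

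**Figure D4:**
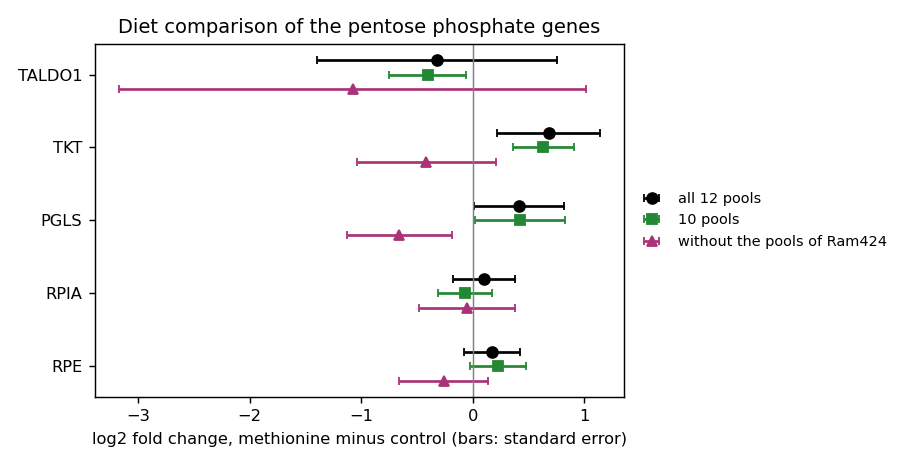
Log2 fold change (methionine minus control) of the 5 genes with standard errors from the quasi-likelihood test of edgeR, over all 12 pools (circles), without Embryo444_2 and Embryo511_1 (squares) and without the pools of Ram424 (triangles). TKT lies at 0.68 and 0.63 in the first fits and at -0.42 without Ram424, and PGLS moves from 0.41 to -0.66. Without Ram424 the methionine pools are Embryo498_1 and Embryo511_1 alone.

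Of 56 other genes around the pathway in 7 lists, 46 had a row and were tested, and 0 passed the FDR in either direction, with a smallest FDR of 0.608. Their median log2 fold change was 0.13 over the 12 pools and 0.091 over the 10. Over the 12 pools 1 of 46 (2.17%) had an unadjusted p under 0.05, against 7.92% of all genes. This was GCLC, the catalytic subunit of glutathione synthesis, with 102.1 ± 24.6 CPM (SD, n = 6) in methionine and 68.9 ± 19.4 CPM (SD, n = 6) in control pools and an edgeR FDR of 0.608, at a log2 fold change of 0.57 (0.38 over the 10 pools). Over the 10 pools 6 of 46 (13.0%) were below that p, against 11.9% of all genes, 4 higher and 2 lower with methionine, and GCLC was not among them.

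H6PD, which encodes an enzyme that makes NADPH inside the endoplasmic reticulum, had 151.6 ± 97.6 CPM (SD, n = 6) with methionine and 126.9 ± 41.6 CPM (SD, n = 6) in controls. Its log2 fold change was 0.25 (standard error 0.37) over the 12 pools and -0.26 (standard error 0.27) over the 10. H6PD was at 71.5 CPM in Embryo444_2, 0.564 times the median of the 10 pools, and at 330.1 CPM in Embryo511_1, 2.60 times that median and above all of the 10 (67.4 to 192.7 CPM). Among 7 other genes of the non-oxidative branch and its control, with a median log2 fold change of 0.012 (0.15 over the 10 pools), TIGAR, a phosphatase that directs sugar phosphates into the pathway, had the highest level (100.4 ± 54.2 against 101.4 ± 41.0 CPM, SD, n = 6 each), with a log2 fold change of -0.0090 (-0.021 over the 10 pools).

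None of the 6 genes of ribose 5-phosphate use passed the test. Their log2 fold change was above 0 for 6 over the 12 pools, with a median of 0.29, and for 5 over the 10, with a median of 0.27, against 50.5% and 47.0% of all genes above 0. The one with most CPM was PRPSAP1, an associated protein of phosphoribosyl pyrophosphate synthetase, at 466.8 ± 180.7 and 421.9 ± 275.5 CPM (SD, n = 6 each), a log2 fold change of 0.15 (0.073 over the 10 pools). For PRPS1, PRPS2, PRPSAP1 and PPAT, Embryo498_1 and Embryo511_1 both lay below the control mean, so the higher methionine mean came from the pools of Ram424. PRPSAP2 lay above its control mean in both of these pools, and PRPS1L1 in Embryo498_1 only. The summed level of the 6 genes was 572.3 to 1211 CPM in the 10 pools, 223.7 CPM in Embryo444_2 and 372.8 CPM in Embryo511_1. The 10 tested of 12 hexose and triose phosphate enzymes had a median of 0.043 over the 12 pools and -0.013 over the 10. ALDOA, an aldolase, had 944.2 ± 559.8 and 549.3 ± 262.4 CPM (SD, n = 6 each), a log2 fold change of 0.78 (0.76 over the 10 pools), and its list summed to 1014 to 2204 CPM in the 10 pools but to 366.7 and 584.9 CPM in Embryo444_2 and Embryo511_1. In the pools of Ram424 ALDOA had 1481, 1446, 1234 and 932.0 CPM. Embryo498_1 and Embryo511_1 had 481.7 and 90.2 CPM of it, below the control mean.

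The lists around NADPH gave no called gene either. The 10 tested of 12 other NADPH sources (median log2 fold change 0.022, and 0.047 over the 10) summed to 514.0 to 778.5 CPM in the 10 pools, 443.9 CPM in Embryo444_2 and 606.7 CPM in Embryo511_1. MTHFD1L, a mitochondrial folate enzyme, led them with 202.2 ± 62.0 and 135.6 ± 45.6 CPM (SD, n = 6 each), a log2 fold change of 0.58 (0.60 over the 10 pools). The 5 tested of 7 NADPH-dependent reductases had a median of 0.11 (0.062 over the 10 pools), led by TXNRD1, the cytosolic thioredoxin reductase (187.9 ± 89.8 and 150.7 ± 30.1 CPM, SD, n = 6 each), with a log2 fold change of 0.32 (0.47 over the 10 pools). The 7 tested of 9 genes of the NFE2L2 pathway, the transcription factor of the antioxidant response, had a median of 0.22 over the 12 pools and -0.018 over the 10.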

How the data were processed

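Per the study's methods and the labels, the authors amplified whole-transcriptome RNA of each pool, demultiplexed single-end reads with bcl2fastq, checked them with FastQC, trimmed them with Trimmomatic, aligned them to Oar_rambouillet_v1.0 with STAR and deposited its raw gene counts, without normalization. The strand column used is not given in the sources used here. No molecular identifiers are described for these amplified libraries, so counts are of reads. Every column matched a pool by its title. Sperm methylation calls were not used here, since no annotation of their build was at hand to place cytosines at these genes.

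The filter kept a gene where over 3 pools reached 15 counts. Counts were TMM-normalized and tested for diet with edgeR 4.0.16 (R 4.3.3). The standard error is the log2 fold change over the root of the F statistic. Log2 CPM used a prior count of 2. The script was tested on simulated data. Pools of a ram differed by more than sampling noise (chi-square per degree of freedom 3.36 to 27.5 over genes with 15 or more counts). Alternatives were the likelihood-ratio test, DESeq2 1.42.0, limma 3.58.1 voom with the ram as a random effect, summed pools, other scalings and filters, a block and pools or rams left out. Leaving out Embryo444_2 and Embryo511_1 was added after the data were seen. Members, lists and the rule for named genes (the 5 genes, each pool's most counted gene, the 5 genes most like TALDO1 or the other 4, and of each list the gene with most CPM and those with an unadjusted p under 0.05, and H6PD) were chosen with earlier results of these data known. Of 20092 gene names, 17925 matched a RefSeq symbol of ARS-UI_Ramb_v3.0, from which gene numbers were taken. Python 3.11.15 (scipy 1.17.1) made the remaining steps.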

Additional observations from a re-analysis of the deposited data

Results flagged for a closer look

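TKT in control pool Embryo444_2 (43.2 CPM) lay far below the other 5 control pools (216.2 to 313.8 CPM): its gap to the nearest pool was 0.639 of the range of the group, above Dixon's critical value of 0.625. It was the 1 value past this limit in 10 groups examined (5 genes, each with control and methionine pools), and chance alone puts about 1 in 20 groups past it. TALDO1 in the same pool (174.9 CPM) had a ratio of 0.370. The ratio was taken on linear CPM, where Embryo423_1 (17211 CPM) widened the range of the control pools. It therefore cannot show that TALDO1 was not set apart in Embryo444_2, where it was 45.6-fold below the median of the 10 pools.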

How the results depend on the processing

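None of the 5 genes passed an FDR of 0.05 under any of 27 alternatives. Over all genes, 24 of the 27 called 0, while the likelihood-ratio test called 5, DESeq2 16 and the 10 pools without Embryo444_2 and Embryo511_1 called 1. With each pool, or the pools of a ram with more than 1, left out, the log2 fold change was -1.08 to 0.20 for TALDO1, -0.42 to 0.91 for TKT, -0.66 to 0.69 for PGLS, -0.13 to 0.41 for RPIA and -0.26 to 0.27 for RPE. Without Ram424, where Embryo498_1 and Embryo511_1 were the methionine pools left, the sign turned for TKT, PGLS, RPE and RPIA. It turned without Embryo423_1 or Ram423 for TALDO1, and without Embryo444_2 or Ram444 for RPIA. It also turned for TALDO1 when limma took rams as random (0.095), for RPIA over the 10 pools (-0.070) and for RPE with the replicate block (-0.045). With the pools of a ram summed, TALDO1 was at -0.62, TKT at 0.28, PGLS at 0.087 and RPE at 0.022. The cause was not tested. The pool number within a ram served as that replicate block, which called 0 genes (876 at an unadjusted p under 0.05). The numbers repeat within rams and are only names, so they form no pairs of pools. The median share of TALDO1 was 0.700% over the 12 pools and 0.707% to 0.792% under its alternatives. The alternatives listed for sperm methylation at these genes were not run. Depth limits PGLS and RPE most, with 28 and 33 counts in their lowest pools.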
